A study of Mus musculus with 16 samples.

Results

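Fatty acid oxidation and ketone body use were followed through 33 genes, chosen by name for their established roles. All 33 were present among the 49315 genes of the deposited count table, and all 33 were among the 17469 genes that passed the filter on low counts. Hippocampal RNA was sequenced from 16 mice, 4 in each of 4 groups: wild type mice fed a standard diet, wild type mice fed a ketogenic diet, Kcna1 knockout mice fed the standard diet and Kcna1 knockout mice fed the ketogenic diet. Kcna1 codes for Kv1.1, a potassium channel of axons, and mice that lack it have spontaneous seizures. The strain, age, sex, knockout allele, diet composition and time on the diet are not given in the sources used here, and no measure of blood ketones was used here.

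A ketogenic diet is rich in fat and poor in carbohydrate. In the liver it leads fatty acids to be turned into the ketone bodies acetoacetate and beta-hydroxybutyrate, which enter the brain through monocarboxylate transporters and are broken down to acetyl-CoA in mitochondria. Long-chain fatty acids are instead activated to acyl-CoA, moved into mitochondria by the carnitine shuttle and shortened by repeated rounds of dehydrogenation, hydration, oxidation and cleavage. Many genes of fatty acid oxidation are targets of PPAR nuclear receptors, which bind fatty acids. In the brain, ketone bodies are used by neurons and glia, whereas fatty acid oxidation is best known in astrocytes.

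Libraries are named here by the animal tags of the deposited columns. Total counts per library ranged from 13440230 to 22309504. Kcna1 (ENSMUSG00000047976, chr6:126640397-126646384, minus strand, GRCm38) measured 107 to 130 CPM (counts scaled to the effective library size) in the 8 wild type libraries and 43.4 to 47.2 CPM in 7 of the 8 knockout libraries. The library labelled knockout KC888LL, on the standard diet, measured 82 CPM and matched neither range. It was kept under its label, and results that depend on it are also given without it. Each of the 8 hippocampal marker genes examined was detected in every group. Their sum was 542, 552 and 573 CPM in 3 knockout libraries on the standard diet, against 725 CPM in KC888LL and 654 to 964 CPM in the other 3 groups. The sum of 8 neuronal markers was lowest in KC873RR and KC872RL, at 5620 and 5930 CPM, against 6250 to 7200 CPM in the other 14 libraries. Y-linked Ddx3y was expressed in 4 libraries, namely KC890RL of the wild type on the standard diet, KC872RL and KC873RR of the knockout on that diet and KC846L of the wild type on the ketogenic diet. Xist, which is expressed in female cells, measured 4.43 to 41.1 CPM in these and 730 to 844 CPM in all others. By these genes the knockout on the ketogenic diet held no male library. Sex was thus unevenly spread over the groups, and in the knockout it is partly confounded with diet. KC872RL and KC873RR also stood apart in glial markers, with a summed level of 10 microglial markers of 653 and 645 CPM, against 274 to 334 CPM in the other 14 libraries. The sum of 8 reactive astrocyte markers, of which 7 passed the filter, was 2880 CPM in KC872RL, 2470 CPM in KC913RR, 1630 CPM in KC873RR and 1280 CPM in KC934R, against 373 to 774 CPM elsewhere. Summed levels of 12 oligodendrocyte markers were 4290 to 6680 CPM in wild type and 5330 to 5900 CPM in knockout libraries on the standard diet, and 3540 to 4510 CPM and 2060 to 3870 CPM on the ketogenic diet. Sums of 5 red cell markers were 17.4 to 32.5 CPM in the knockout on the ketogenic diet, against 42.7 to 113 CPM in the other 3 groups. Those of 6 choroid plexus markers were 190 to 1060 CPM in 6 libraries, 5 of them on the standard diet and 1 wild type on the ketogenic diet, and 30.5 to 53.2 CPM in the other 10, which include all 4 of the knockout on the ketogenic diet. For the diet in the knockout, edgeR called 9 of 12 oligodendrocyte markers lower (median log2 fold change -0.857), 4 of 5 red cell markers lower (-2.016), and 0 of 10 microglial (-0.757), 0 of 6 choroid plexus (-2.916), 0 of 8 neuronal (0.129) and 0 of 8 hippocampal markers (0.362), where 1.16% of all tested genes were called. Of the microglial markers 10 of 10 lay below 0, and of the hippocampal markers 8 of 8 above it. For the diet in the wild type 0 of 12 oligodendrocyte markers were called, but 12 of 12 lay below 0 (median -0.487). Of these, 11 had an unadjusted p under 0.05 by edgeR, against 5.46% of all tested genes. Averaged over genotypes edgeR called 11 of 12 oligodendrocyte markers lower (-0.668), beside 0.899% of all tested genes. It also called 3 of 5 red cell markers lower (-1.033). Fewer cells of a type and less RNA per cell cannot be told apart in such bulk samples, and the part of these markers in the results below was not tested.

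The regions around the transcription starts of 4 members are shown for orientation, because these 4 include the genes with the lowest adjusted p-values for the diet in the knockout and the rate-controlling step of mitochondrial import. Sequences are from RefSeq on GRCm38.p6 and run 5′ to 3′ on the gene's strand, from 250 bases before the start to 50 bases after it. Hadha and Hadhb encode the alpha and beta subunits of the mitochondrial trifunctional protein and are transcribed away from each other from neighbouring starts on chromosome 5, at 30154980 and 30155253, with 272 bases between them. The capitals in the Hadhb window (chr5:30155003-30155302, plus strand) mark the 228 bases that it shares with the window of Hadha.
Hadhb: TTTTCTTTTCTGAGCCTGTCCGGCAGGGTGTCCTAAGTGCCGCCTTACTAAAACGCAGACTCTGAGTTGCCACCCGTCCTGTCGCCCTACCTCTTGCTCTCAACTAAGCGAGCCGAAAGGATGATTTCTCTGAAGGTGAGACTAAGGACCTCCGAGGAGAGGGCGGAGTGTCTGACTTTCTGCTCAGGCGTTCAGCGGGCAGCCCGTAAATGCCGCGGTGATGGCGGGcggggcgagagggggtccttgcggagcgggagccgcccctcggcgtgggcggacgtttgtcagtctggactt
In Cpt1a (chr19:3323051-3323350, plus strand) and Plin2 (chr4:86670010-86670309, minus strand) the capitals mark TGACCT, the reverse complement of AGGTCA, the hexamer recognised by many nuclear receptors. It begins 94 bases before the start of Cpt1a and 218 bases before that of Plin2.
Cpt1a: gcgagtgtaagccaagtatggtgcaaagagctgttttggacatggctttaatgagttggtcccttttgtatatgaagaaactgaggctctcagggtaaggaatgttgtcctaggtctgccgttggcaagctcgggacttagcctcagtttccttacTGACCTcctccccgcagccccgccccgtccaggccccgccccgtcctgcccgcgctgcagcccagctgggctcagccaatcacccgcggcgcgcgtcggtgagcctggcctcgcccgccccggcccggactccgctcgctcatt
Plin2: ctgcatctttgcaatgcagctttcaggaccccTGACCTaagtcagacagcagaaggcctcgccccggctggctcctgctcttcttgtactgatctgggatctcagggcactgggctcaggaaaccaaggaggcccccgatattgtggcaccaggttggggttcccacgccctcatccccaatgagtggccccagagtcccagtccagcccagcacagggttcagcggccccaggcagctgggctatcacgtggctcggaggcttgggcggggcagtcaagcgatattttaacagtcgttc
The window of Cpt2 (chr4:107923540-107923839, minus strand) holds no AGGTCA on either strand.
Cpt2: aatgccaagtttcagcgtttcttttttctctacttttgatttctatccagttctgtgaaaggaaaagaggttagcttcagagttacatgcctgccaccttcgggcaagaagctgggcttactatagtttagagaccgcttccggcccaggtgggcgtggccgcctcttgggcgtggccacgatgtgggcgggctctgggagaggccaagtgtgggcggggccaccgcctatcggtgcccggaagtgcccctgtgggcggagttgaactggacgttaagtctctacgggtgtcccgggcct
The table held 35 windows for 29 of the 33 members. AGGTCA on either strand was present in 6 of the 35 windows (17.1%), those of Acadm, Acadvl, Acsl6, Cpt1a, Cpt1c and Plin2, and in 16.3% of the 32851 windows of all genes, so the share among the members was close to that of all genes. A direct repeat of AGGTCA with 1 base between the copies, the form to which PPAR and its partner RXR bind, was in 0 of the 35 windows and in 13 of all windows (0.0396%).

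Oxct1 and Acat1, both of ketone body use, were among the most abundant members. Levels are compared between genes as CPM per kilobase of the gene's merged exons, averaged over the 16 libraries. Oxct1, which transfers coenzyme A to acetoacetate and is the committed step of ketone use outside the liver, was highest at 79.1 CPM per kb. It was followed by Acsl3 at 45.3 and Acsl6 at 26.8, which activate long-chain fatty acids, by Acat1 at 26.2, the thiolase that splits acetoacetyl-CoA, and by Cpt1c at 24.6, the neuronal carnitine palmitoyltransferase of the endoplasmic reticulum. The lowest to highest libraries of Acsl6, Acat1, Cpt1c and the next gene, the fatty acid transport protein Slc27a1 at 23.4 CPM per kb, overlapped, so their order is not resolved. Bdh1, which interconverts beta-hydroxybutyrate and acetoacetate, measured 15.2, and Slc16a1, the monocarboxylate transporter MCT1, 10.4 CPM per kb. Cpt1a, which attaches long-chain acyl groups to carnitine at the outer mitochondrial membrane, measured 4.14, Cpt2, which returns them to coenzyme A inside, 1.82, and Plin2, which coats lipid droplets, 1.37 CPM per kb. Angptl4, a secreted inhibitor of lipoprotein lipase, and Ehhadh, the peroxisomal bifunctional enzyme, were lowest at 0.809 and 0.806. The order depends on the length used: per kb of mean transcript length, levels were 1 to 6.17 times as high (median 2.67) and 69 of the 528 pairs of members (13.1%) changed order. Cpt1a then measured 21.4 and lay above Slc16a1, which stayed at 10.4 CPM per kb.

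**Figure D1:**
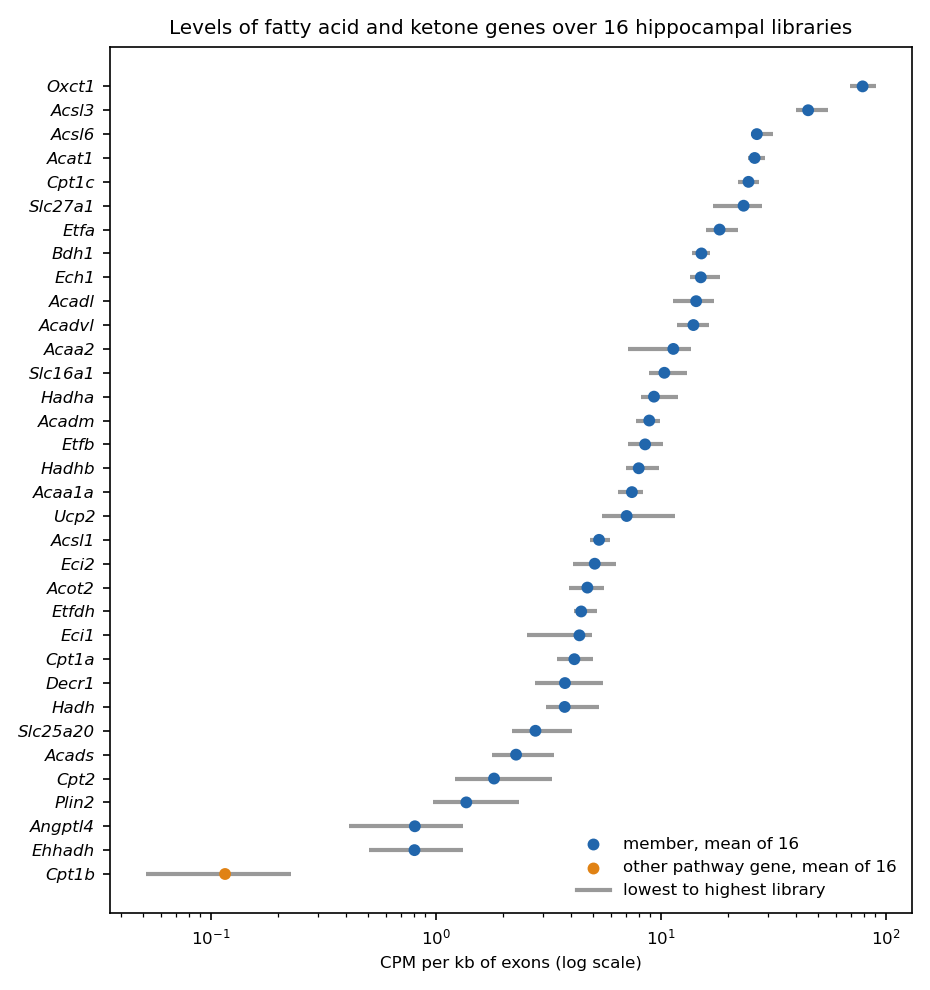
Level of each of the 33 members and of Cpt1b, in CPM per kilobase of merged exons on a log axis, with points for the mean of 16 libraries and bars from the lowest to the highest library. Oxct1 is at 79.1 and Ehhadh at 0.806 CPM per kb, and Cpt1b, the muscle form, is at 0.116.

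The highest library exceeded the lowest by a median of 1.44-fold over the 33 members, from 1.19-fold for Acat1 to 3.21-fold for Angptl4.

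The first question is whether the ketogenic diet altered these genes, in each genotype and on average over both. Genes were tested with edgeR over all 17469 genes, and a gene is called below where the adjusted p was under 0.05. In the wild type, 0 of the 33 members were called (0.0114% of all tested genes were called), and in the knockout 0 of 33 (1.16% of all). Averaged over both genotypes 0 of 33 were called (0.899% of all). The lowest adjusted p of any member was 0.902 in the wild type, 0.0811 in the knockout and 0.0841 on average.

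At an unadjusted p under 0.05, edgeR gave 1 member (3.03%) in the wild type, against 5.46% of all tested genes. In the knockout it gave 10 members (30.3%), 2 higher and 8 lower on the ketogenic diet, against 16.9% of all genes. On average it gave 6 (18.2%), 1 higher and 5 lower, against 14.4%. The share of members was close to that of all genes in the wild type and on average, and higher in the knockout. These differences in share were not tested. The median log2 fold change of the members was -0.041 in the wild type, -0.082 in the knockout and -0.043 on average, beside 0, 0.007 and 0.006 for all tested genes. Members lay below 0 more often than above it, 20 against 13 in the wild type and 21 against 12 in the knockout. With 1 library left out, the median ranged from -0.073 (without KC844RR) to -0.006 (without KC846L) in the wild type. In the knockout it ranged from -0.161 (without KC934R) to -0.027 (without KC872RL), and on average from -0.066 to -0.023, without the same 2 libraries.

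In the wild type the 95% interval of the diet effect ended below a 1.5-fold rise for 32 of 33 members, the exception being Ucp2, and for 13997 of all 17469 genes. In the knockout it did so for 30 of 33, the exceptions being Ucp2, Angptl4 and Ehhadh, and for 14426 of all genes. The interval lay within a 1.5-fold change in both directions for 29 of 33 members in the wild type and 27 of 33 in the knockout. The same held for 11866 and 11238 of all genes. Its lower end reached a 1.5-fold fall for Cpt2, Plin2 and Angptl4 in the wild type, and for Cpt2, Plin2 and Eci1 in the knockout.

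**Figure D2:**
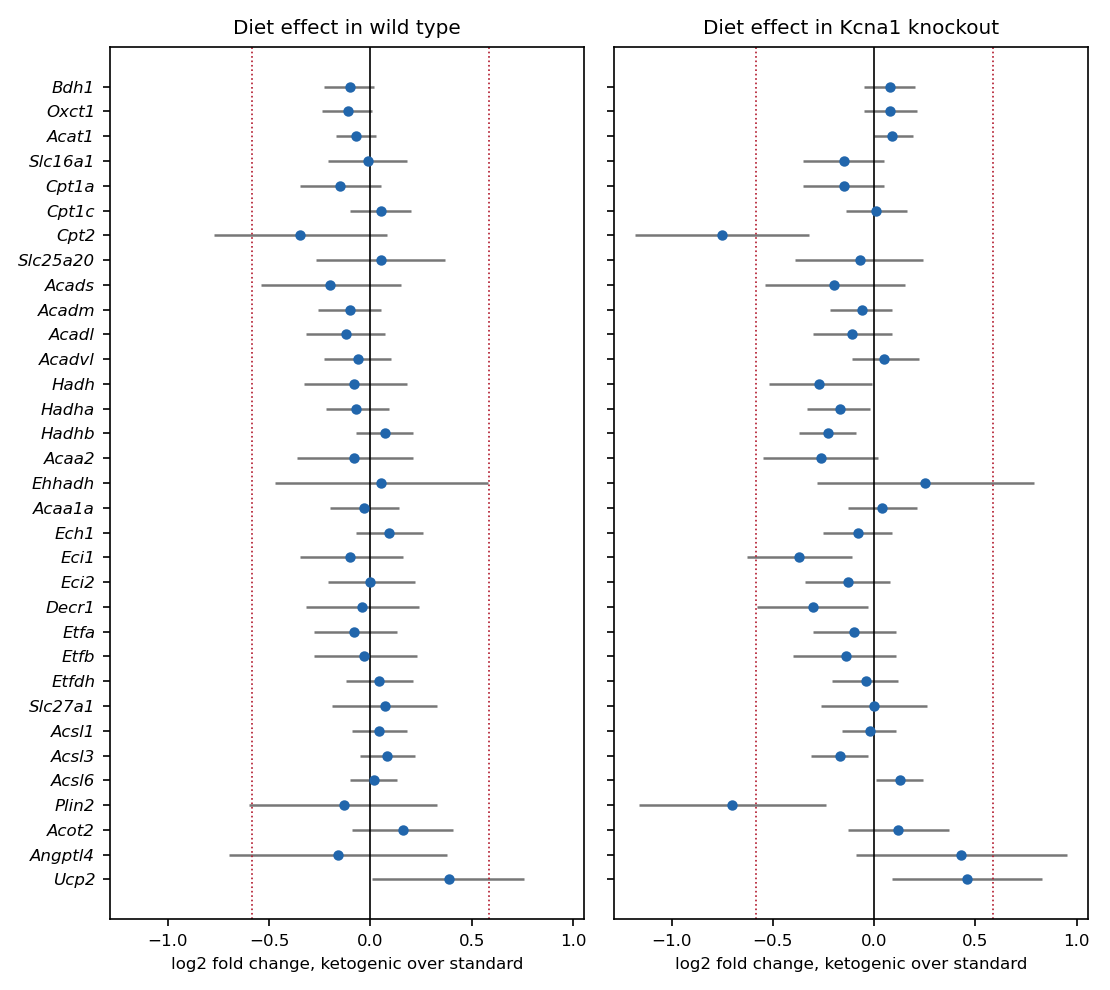
Log2 fold change on the ketogenic over the standard diet for each of the 33 members in wild type (left) and Kcna1 knockout (right), with points for the edgeR estimate, bars for the 95% interval and dotted lines at a 1.5-fold change in either direction. In the wild type the points lie between -0.35 and 0.39, and in the knockout between -0.75 for Cpt2 and 0.46 for Ucp2.

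The levels of the 2 diets did not overlap for 4 members in the wild type, Oxct1 and Acat1 being lower and Acsl3 and Ucp2 higher on the ketogenic diet, while 4.88% of all tested genes did not overlap. In the knockout Cpt2 and Eci1 did not overlap, both lower on the ketogenic diet, against 6.39% of all tested genes.

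The 4 genes of ketone body use and transport differed little between diets. In the wild type on the standard diet Oxct1 (chr15:4026383-4155344, plus strand) measured 299, 303, 303 and 315 CPM, and on the ketogenic diet 269, 278, 282 and 297 CPM. Every ketogenic library lay below every standard library. In the knockout the order did not hold, with 256, 285, 296 and 297 CPM on the standard and 280, 287, 302 and 334 CPM on the ketogenic diet. This gave a log2 fold change of -0.11 ± 0.06 (SE) in the wild type (edgeR, adjusted p = 0.94) and 0.08 ± 0.06 in the knockout (edgeR, adjusted p = 0.524), where it was 0.03 without KC934R and 0.12 without KC916RRL.

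Acat1 (chr9:53580522-53610382, minus strand) had the narrowest spread of all members. It measured 96.1, 98.1, 99.9 and 100 CPM in wild type mice on the standard diet and 92.4, 92.8, 95.2 and 95.4 CPM on the ketogenic diet. Knockout libraries measured 93.6, 97.8, 98.7 and 101 CPM on the standard and 99.4, 101, 107 and 110 CPM on the ketogenic diet. The wild type libraries were lower on the ketogenic diet with no overlap, and the knockout libraries overlapped at 99.4 to 101 CPM. edgeR estimated a log2 fold change of -0.07 ± 0.05 in the wild type (edgeR, adjusted p = 0.979) and 0.09 ± 0.05 in the knockout (edgeR, adjusted p = 0.312).

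Bdh1 (chr16:31422280-31458901, plus strand) measured 60.2, 60.3, 61.4 and 63.9 CPM on the standard diet and 54.7, 55.4, 57.9 and 60.8 CPM on the ketogenic diet in the wild type. Knockout libraries measured 54.7, 56.4, 56.8 and 60.6 CPM on the standard and 53.5, 61.1, 61.8 and 64.5 CPM on the ketogenic diet. The groups overlapped in both genotypes. The log2 fold changes were -0.10 ± 0.06 in the wild type (edgeR, adjusted p = 0.96) and 0.08 ± 0.06 in the knockout (edgeR, adjusted p = 0.566), where it was 0.04 without KC913RR and 0.13 without KC935LL.

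Slc16a1 (chr3:104638668-104658462, plus strand), which carries ketone bodies and lactate across the blood-brain barrier and glial membranes, measured 43.5, 46.1, 46.8 and 47.4 CPM in the wild type on the standard and 39.3, 44.6, 49.1 and 49.2 CPM on the ketogenic diet. Knockout libraries measured 41, 48.4, 49.5 and 57.8 CPM on the standard and 40, 41.6, 46.4 and 49.2 CPM on the ketogenic diet. The groups overlapped in both genotypes. The log2 fold change was -0.01 ± 0.09 in the wild type (edgeR, adjusted p = 0.998) and -0.15 ± 0.09 in the knockout (edgeR, adjusted p = 0.436), where it was -0.06 without KC872RL and -0.23 without KC888LL. The 95% intervals of all 4 genes lay within a 1.5-fold change in either direction in both genotypes.

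Of the carnitine shuttle, Cpt2 (chr4:107903981-107923610, minus strand) had the lowest adjusted p of any member under the diet. Knockout libraries measured 4.38, 4.6, 5.2 and 7.85 CPM on the standard diet, from 79 to 156 counts, and 2.93, 3.14, 3.41 and 3.64 CPM on the ketogenic diet, from 42 to 62 counts. Every ketogenic library lay below every standard library, and the highest value was that of KC872RL. This gave a log2 fold change of -0.75 ± 0.21 (edgeR, adjusted p = 0.0811), a level of 0.594-fold with a 95% interval of 0.441 to 0.801. It passed the threshold with DESeq2 (adjusted p = 0.0269), where 1 member was called beside 4.2% of all genes. The log2 fold change was -0.52 without KC872RL (edgeR, adjusted p = 0.353) and -0.72 with Xist as a covariate (edgeR, adjusted p = 0.324).

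Wild type libraries measured Cpt2 at 4.02, 4.25, 4.31 and 6.67 CPM on the standard and 3.28, 3.4, 4.06 and 4.42 CPM on the ketogenic diet. The groups overlapped, and the highest value was that of KC894RLL, the library with the highest choroid plexus sum (1060 CPM). edgeR estimated a log2 fold change of -0.35 ± 0.20 (edgeR, adjusted p = 0.96), and -0.15 without KC894RLL. Averaged over genotypes it was -0.55 ± 0.14 (edgeR, adjusted p = 0.0841), with an adjusted p of 0.0268 by DESeq2, which called 2 members, Cpt2 and Ucp2, beside 2.47% of all genes.

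Cpt1a (chr19:3322334-3385733, plus strand) measured 31.4, 33.2, 33.9 and 34 CPM in the wild type on the standard and 28.5, 28.8, 29.7 and 32.2 CPM on the ketogenic diet. In the knockout it measured 26.6, 31.5, 37.1 and 38.2 CPM on the standard and 27.1, 29.1, 30.6 and 33.7 CPM on the ketogenic diet. The groups overlapped in both genotypes, and the log2 fold change was -0.15 ± 0.10 in each (edgeR, adjusted p = 0.97 in the wild type and 0.45 in the knockout). The value in the knockout was -0.08 without KC872RL, -0.24 without KC893RL and -0.04 with Xist as a covariate. The other 2 members of the shuttle are Cpt1c, at 123 to 154 CPM over all libraries, and the carnitine carrier Slc25a20, at 10.6 to 19.7 CPM. Both overlapped between the diets in each genotype, with group means of 134 to 139 CPM and 12.6 to 14.5 CPM.

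The acyl-CoA dehydrogenases Acads, Acadm, Acadl and Acadvl, which take short, medium, long and very long chains, gave 0 members at an unadjusted p under 0.05 for the diet in either genotype. Their median log2 fold change was -0.112 in the wild type and -0.083 in the knockout. Acadm, the medium-chain enzyme, had group means of 33.1 to 36.2 CPM, with SDs of 1.45 to 3.14 (n = 4 a group).

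Of the enzymes of hydration, oxidation and cleavage, Hadhb (chr5:30155248-30184593, plus strand) stood lowest in p in the knockout. It measured 53.3, 55.7, 60.1 and 64.8 CPM on the standard and 46.2, 49.6, 50.3 and 53.4 CPM on the ketogenic diet. The groups met at 53.3 and 53.4 CPM. The log2 fold change was -0.23 ± 0.07 (edgeR, adjusted p = 0.103), and -0.17 with Xist as a covariate (edgeR, adjusted p = 0.431).

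Wild type libraries measured Hadhb at 47.4, 49.1, 50.4 and 53.6 CPM on the standard and 50.3, 50.6, 54.3 and 55.3 CPM on the ketogenic diet, and the groups overlapped. The highest Hadhb values of the study were those of KC873RR and KC872RL. Its partner Hadha (chr5:30118304-30155162, minus strand) measured 78.4, 83.5, 88.6 and 105 CPM in the knockout on the standard and 75.2, 77.4, 78.9 and 83.9 CPM on the ketogenic diet. The groups overlapped, and the log2 fold change was -0.17 ± 0.08 (edgeR, adjusted p = 0.249) and -0.08 without KC872RL. The remaining members were Hadh and Acaa2 in mitochondria and Ehhadh and Acaa1a in peroxisomes, of which Hadh had an unadjusted p under 0.05 in the knockout, with group means of 21.4 ± 3.84 CPM on the standard and 17.8 ± 2.72 CPM on the ketogenic diet (SD, n = 4 each).

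The auxiliary enzymes that prepare unsaturated chains were Ech1, Eci1, Eci2 and Decr1. Eci1, an enoyl-CoA isomerase, measured 9.32, 10.1, 10.3 and 10.5 CPM in the knockout on the standard and 5.42, 8.07, 8.63 and 9.12 CPM on the ketogenic diet. The groups did not overlap, and the lowest value was that of KC913RR. This gave a log2 fold change of -0.37 ± 0.12 (edgeR, adjusted p = 0.148), and -0.23 without KC913RR.

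Decr1 (chr4:15917240-15945507, minus strand), the mitochondrial dienoyl-CoA reductase, measured 15.2, 15.6, 19 and 21.5 CPM in the knockout on the standard and 12.6, 12.8, 13.6 and 18.5 CPM on the ketogenic diet. The groups overlapped through KC934R at 18.5 CPM. edgeR estimated a log2 fold change of -0.30 ± 0.13 (edgeR, adjusted p = 0.248), -0.20 without KC872RL and -0.45 without KC934R. The electron transfer flavoprotein subunits Etfa and Etfb and the dehydrogenase Etfdh, which pass electrons from the acyl-CoA dehydrogenases to the respiratory chain, gave 0 of 3 members at an unadjusted p under 0.05 for the diet in either genotype.

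Among the 6 genes of uptake, activation, storage and release, Plin2 (chr4:86648386-86670060, minus strand) had the largest estimate in size for the diet in the knockout. In the knockout it measured 4.33, 4.38, 8.1 and 8.25 CPM on the standard and 3.44, 3.7, 3.94 and 4.35 CPM on the ketogenic diet. The 2 high values were those of KC873RR and KC872RL, the libraries with the high microglial sums, and the other 2 lay on either side of the highest ketogenic library. The log2 fold change was -0.70 ± 0.22 (edgeR, adjusted p = 0.118), -0.54 without KC872RL and -0.36 with Xist as a covariate.

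Wild type libraries measured Plin2 at 3.62, 4.44, 5.03 and 5.95 CPM on the standard and 3.5, 4.12, 4.65 and 5.07 CPM on the ketogenic diet, and the groups overlapped. Acsl3 (chr1:78657825-78707743, plus strand) measured 189, 209, 219 and 241 CPM in the knockout on the standard and 174, 193, 193 and 203 CPM on the ketogenic diet. The groups overlapped, with a log2 fold change of -0.17 ± 0.07 (edgeR, adjusted p = 0.197), which was -0.11 without KC872RL and -0.09 with Xist as a covariate. Wild type libraries did not overlap between the diets and were higher on the ketogenic diet, with 182, 186, 189 and 190 CPM on the standard and 191, 193, 199 and 208 CPM on the ketogenic diet. Acsl6 was, with Ucp2, one of the 2 members above 0 at an unadjusted p under 0.05 for the diet in the knockout. It measured 253, 255, 256 and 276 CPM on the standard and 265, 271, 287 and 312 CPM on the ketogenic diet, the groups overlapping through KC872RL at 276 CPM, with a log2 fold change of 0.13 ± 0.05 (edgeR, adjusted p = 0.245). Wild type libraries measured 250 to 264 CPM and 253 to 271 CPM, and the genotypes on the ketogenic diet differed by 0.12 ± 0.05 (edgeR, adjusted p = 0.534). Slc27a1, Acsl1 and the thioesterase Acot2 had group means of 133 to 144, 53.4 to 58 and 9.76 to 11.2 CPM.

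Ucp2 (chr7:100493337-100502020, plus strand), a carrier of the inner mitochondrial membrane, had a positive estimate under the diet in both genotypes. Wild type libraries measured 38.3, 39.8, 43.5 and 44.8 CPM on the standard and 46.1, 51.6, 59.1 and 60.8 CPM on the ketogenic diet. The groups did not overlap. This gave a log2 fold change of 0.39 ± 0.18 (edgeR, adjusted p = 0.902), a level of 1.31-fold with a 95% interval of 1.01 to 1.7.

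In the knockout Ucp2 measured 38.2, 41.6, 42.4 and 49 CPM on the standard and 38.4, 50, 66.5 and 80.8 CPM on the ketogenic diet. KC935LL, at 38.4 CPM, lay within the standard range and the other 3 ketogenic libraries above it, the highest being KC913RR and KC934R, which also had the high reactive astrocyte sums of that group. edgeR estimated a log2 fold change of 0.46 ± 0.17 (edgeR, adjusted p = 0.203), 0.27 without KC913RR and 0.62 without KC935LL (edgeR, adjusted p = 0.0392). Leaving out KC935LL called 1 member in the knockout, Ucp2, beside 1.04% of all genes. Averaged over genotypes Ucp2 was at 0.42 ± 0.12 (edgeR, adjusted p = 0.138). The averaged value had an adjusted p of 0.0206 by DESeq2, and without KC935LL it was 0.50 (edgeR, adjusted p = 0.0152), again with 1 member called beside 1.05% of all genes.

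Angptl4 (chr17:33773750-33781830, minus strand), a widely used readout of PPAR activity, was one of the least abundant members, at 25 to 75 counts per library. Wild type libraries measured 1.68, 2.26, 2.48 and 3.62 CPM on the standard and 1.46, 2.05, 2.71 and 2.79 CPM on the ketogenic diet. In the knockout it measured 2.16, 2.51, 3.17 and 3.57 CPM on the standard and 2.99, 3.58, 4.14 and 4.68 CPM on the ketogenic diet. The groups overlapped in both genotypes. The log2 fold change was -0.16 ± 0.26 in the wild type (edgeR, adjusted p = 0.998) and 0.43 ± 0.25 in the knockout (edgeR, adjusted p = 0.391), with a 95% interval of 0.942-fold to 1.93-fold in the latter. With KC888LL and KC872RL both left out the knockout value was 0.73, and with Xist as a covariate 0.27.

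**Figure D3:**
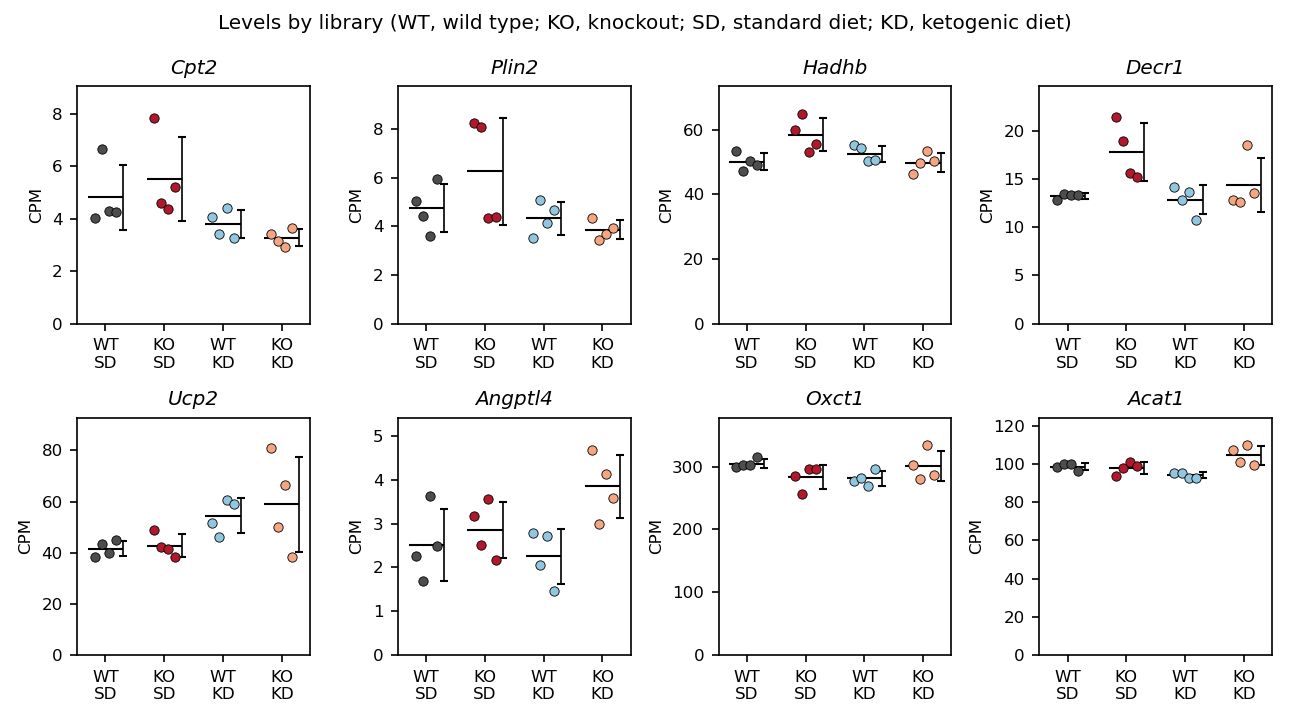
CPM of 8 members in each of the 16 libraries by group, with horizontal lines for the group means and bars for 1 SD (n = 4 a group). The high standard-diet knockout values of Plin2 are those of 2 libraries, at 8.1 and 8.25 CPM, and Ucp2 in the knockout on the ketogenic diet runs from 38.4 to 80.8 CPM.

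The second question is how the knockout differed from the wild type on each diet. The comparisons share groups with those of the diet, so the 2 sets of values are not independent of each other. On the standard diet 0 of the 33 members were called by edgeR (0.00572% of all tested genes), on the ketogenic diet 0 of 33 (0.0172% of all) and averaged over diets 0 of 33 (0.0973% of all). At an unadjusted p under 0.05 there were 4 members on the standard diet (12.1%, against 14.3% of all genes), 4 on the ketogenic diet (12.1%, against 9.22%) and 5 on average (15.2%, against 15.8%). All of these were higher in the knockout. The shares among the members were thus close to those among all genes. On the standard diet 26 members lay above 0 and 7 below, with a median log2 fold change of 0.077 beside 0.004 for all genes, and the median was 0.012 without KC872RL. On the ketogenic diet 20 lay above 0 and 13 below, with a median of 0.023 beside 0.003 for all genes, which was -0.028 without KC934R and 0.056 without KC844RR.

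On the standard diet the levels of the genotypes did not overlap for 3 members, against 5.86% of all tested genes. Oxct1 was lower in the knockout, at 256 to 297 CPM against 299 to 315 CPM, and Decr1 and Acsl1 were higher. Decr1 measured 12.8, 13.4, 13.4 and 13.5 CPM in the wild type, below every knockout library given above, with a log2 fold change of 0.43 ± 0.13 (edgeR, adjusted p = 0.202). Acsl1, the long-chain acyl-CoA synthetase also found on mitochondria, measured 51.2 to 56.4 CPM in the wild type and 57.2 to 58.8 CPM in the knockout. For Hadhb and Acsl3, whose values per library are given above, the log2 fold changes were 0.22 ± 0.07 (edgeR, adjusted p = 0.202) and 0.20 ± 0.07 (edgeR, adjusted p = 0.208). Ech1 (chr7:28825217-28832247, plus strand), the delta3,5-delta2,4-dienoyl-CoA isomerase, measured 30.8, 31.2, 32.1 and 32.9 CPM in the wild type and 31.5, 36.5, 38.8 and 42.1 CPM in the knockout. The lowest knockout value was that of KC888LL, inside the wild type range, and the log2 fold change was 0.23 ± 0.08 (edgeR, adjusted p = 0.227).

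Leaving out KC888LL, the library with the intermediate Kcna1 level, placed 4 members past the threshold in this comparison and 4 in the diet comparison within the knockout, 12.1% of the members in each. Against the wild type on the standard diet these were Hadhb at 0.26, Ech1 at 0.30, Decr1 at 0.48 and Acsl3 at 0.25 (edgeR, adjusted p = 0.0365, 0.0272, 0.0476 and 0.0244), beside 5.73% of all genes. For the diet in the knockout they were Cpt2 at -0.84, Hadhb at -0.27, Acsl3 at -0.22 and Plin2 at -0.84 (edgeR, adjusted p = 0.0266, 0.0301, 0.0407 and 0.0277), beside 6.18% of all genes. For the diet averaged over genotypes Cpt2 alone was called (edgeR, adjusted p = 0.0385), beside 2.58% of all genes. The 2 comparisons use the same 3 remaining standard-diet knockout libraries, of which 2 are KC872RL and KC873RR. With KC872RL left out as well, 0 members were called in any of the 3, beside 0.708% of all genes between the genotypes on the standard diet, 0.775% for the diet in the knockout and 0.574% for the diet on average. For the diet in the knockout Cpt2 was then at -0.58, Hadhb at -0.27, Acsl3 at -0.16 and Plin2 at -0.69 (edgeR, adjusted p = 0.236, 0.132, 0.264 and 0.19), and on average Cpt2 was at -0.46 (edgeR, adjusted p = 0.16). Against the wild type on the standard diet Hadhb was at 0.27, Ech1 at 0.25, Decr1 at 0.37 and Acsl3 at 0.20 (edgeR, adjusted p = 0.142, 0.188, 0.299 and 0.18).

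On the ketogenic diet the genotypes did not overlap for Acat1 and Angptl4, both higher in the knockout, against 3.98% of all tested genes. Acat1 measured 92.4 to 95.4 CPM in the wild type and 99.4 to 110 CPM in the knockout, a log2 fold change of 0.15 ± 0.05 (edgeR, adjusted p = 0.404). Angptl4 measured 1.46 to 2.79 CPM in the wild type and 2.99 to 4.68 CPM in the knockout, a log2 fold change of 0.78 ± 0.25 (edgeR, adjusted p = 0.417) and the largest of any member in this comparison. Acadvl (chr11:70010183-70015411, minus strand), the very long-chain dehydrogenase, measured 31.7, 34.2, 36.4 and 38.5 CPM in the wild type and 36.4, 38, 42.2 and 44.3 CPM in the knockout. The groups overlapped, with a log2 fold change of 0.19 ± 0.08 (edgeR, adjusted p = 0.487). On the standard diet Acadvl measured 35, 35.1, 36.8 and 40 CPM in the wild type and 35.6, 38.2, 38.8 and 42.5 CPM in the knockout, and these groups overlapped too. Decr1 on the ketogenic diet measured 10.8, 12.8, 13.7 and 14.2 CPM in the wild type, overlapping the knockout range of 12.6 to 18.5 CPM. Ech1 on that diet measured 32.2, 33.8, 34.4 and 35.2 CPM in the wild type and 31.6, 34.2, 35.4 and 39.2 CPM in the knockout, also with overlap. Averaged over the diets the lowest adjusted p-values were those of Decr1 at 0.30 ± 0.09, Angptl4 at 0.49 ± 0.18 and Ech1 at 0.14 ± 0.06 (edgeR, adjusted p = 0.151, 0.201 and 0.239).

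The difference of the diet effects between the genotypes was tested as an interaction. It called 0 of 33 members (0% of all tested genes). At an unadjusted p under 0.05 it gave 4 members (12.1%, against 7.48% of all genes). Hadhb and Acsl3 were below 0, at -0.30 ± 0.10 and -0.25 ± 0.09, and Acat1 above it at 0.16 ± 0.07, each with an adjusted p of 0.654 by edgeR, and the fourth was Oxct1, also above 0. For Cpt2 the interaction was -0.40 ± 0.29 (edgeR, adjusted p = 0.769), for Plin2 -0.57 ± 0.31 (edgeR, adjusted p = 0.711) and for Ucp2 0.07 ± 0.25 (edgeR, adjusted p = 0.964). The Cpt2 value was -0.18 without KC872RL and -0.60 without KC894RLL, those of Plin2 and Acsl3 were -0.17 and -0.16 with Xist as a covariate, and that of Ucp2 was -0.12 without KC913RR.

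Across libraries, the members moved most visibly in 1 animal. KC872RL, a knockout library on the standard diet, held the highest level of all 16 libraries for 17 of the 33 members (51.5%) and for 12.4% of all tested genes. By role these were 3 of 4 genes of the carnitine shuttle, 3 of 4 acyl-CoA dehydrogenases, 3 of 6 enzymes of hydration, oxidation and cleavage, 3 of 4 auxiliary enzymes, 2 of 3 electron transfer genes, 2 of 6 genes of uptake and activation, 1 of 4 ketone genes and 0 of 2 of Ucp2 and Angptl4. KC913RR, a knockout library on the ketogenic diet, held the lowest level for 9 members, against 15.8% of all tested genes. KC872RL was also the library with the highest sums of microglial and reactive astrocyte markers, and with the lowest hippocampal sum, 542 CPM. KC873RR, with a microglial sum of 645 CPM, was highest for 1 member (3.03%), against 6.9% of all tested genes. The part of these markers in the member levels was not tested. KC913RR, with the next highest reactive astrocyte sum and the lowest oligodendrocyte sum (2060 CPM), was highest for 4 members (12.1%), against 16.7% of all tested genes.

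**Figure D4:**
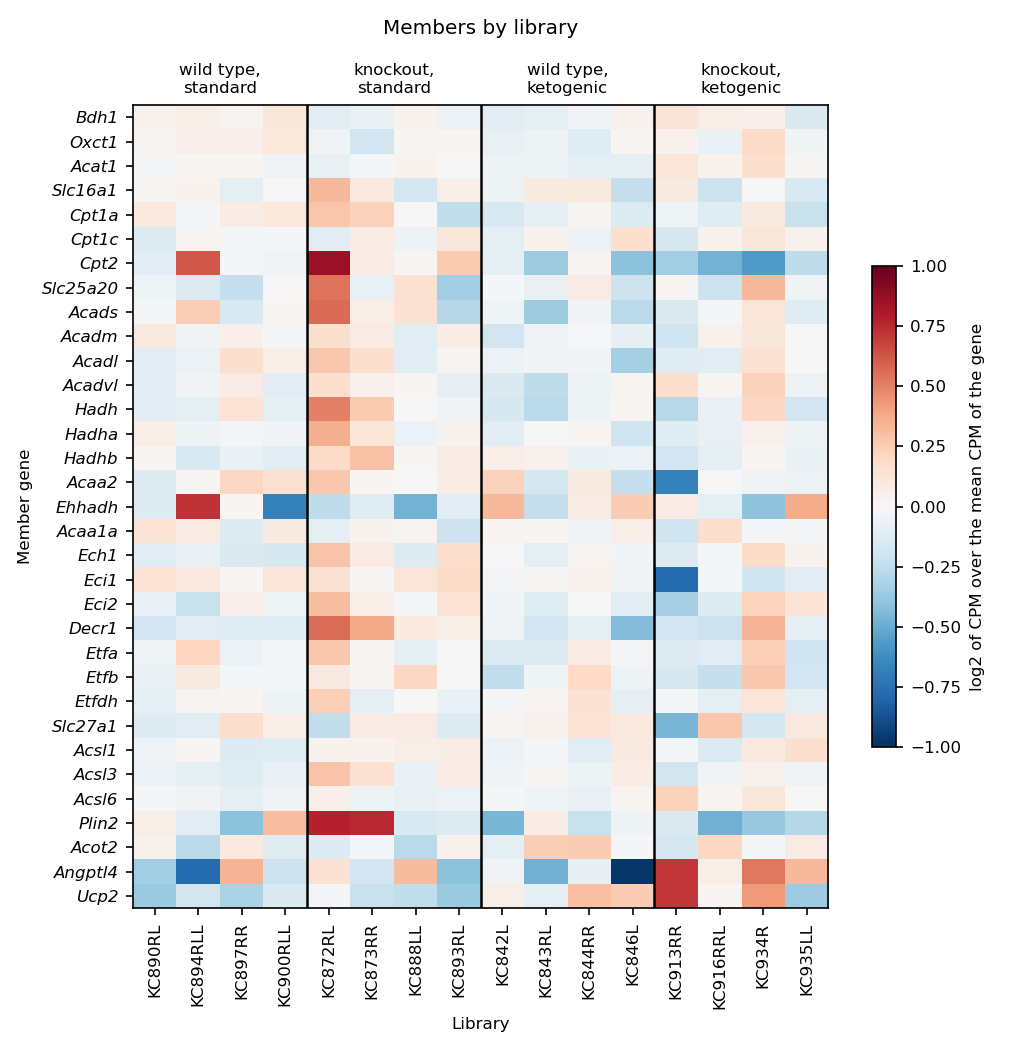
Log2 of the CPM over the mean CPM of the gene for each of the 33 members (rows) in each of the 16 libraries (columns, in 4 groups of 4). The column of KC872RL holds the highest value of 17 members.

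Another 63 listed genes of the same pathways were in the table, of which 59 were tested. Of these, 0 were called in any of the 7 comparisons. At an unadjusted p under 0.05 there were 4 for the diet in the wild type, 1 higher and 3 lower (6.78%, against 5.46% of all tested genes), and 16 in the knockout, 5 higher and 11 lower (27.1%, against 16.9%). Averaged over genotypes the diet gave 7 (11.9%, against 14.4%). The knockout against the wild type gave 12 on the standard diet (20.3%, against 14.3%), 10 on the ketogenic diet (16.9%, against 9.22%) and 12 on average (20.3%, against 15.8%). The interaction gave 12, 5 above 0 and 7 below (20.3%, against 7.48%). Plin3, another lipid droplet coat protein, averaged 16 ± 2.42 CPM on the standard and 10.8 ± 2.45 CPM on the ketogenic diet in knockouts (SD, n = 4 each), the lowest adjusted p of these genes in that comparison (edgeR, adjusted p = 0.0534).

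Exons of 13 of the 33 members overlap exons of another annotated gene, 11 of them on the opposite strand. Whether the counting used strand is not given in the sources used here, so reads of such pairs may have been shared or dropped. Acsl3 and Etfb overlap genes on their own strand, so strand would not separate those reads. For Acadvl the partner is Dvl2, at 28.2 to 42.5 CPM, and for Ucp2 it is Dnajb13, at 0.327 to 2.22 CPM. For Acsl3 it is Utp14b, at 9.57 to 18.2 CPM, and for Hadha it is Garem2, at 12.4 to 18.9 CPM. Acot2 and Acaa1a have close paralogs, Acot1 and Acaa1b, and their counts are uncertain for that reason.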

How the data were processed

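Hippocampal RNA of 16 mice was sequenced. The authors deposited raw counts per gene, with 1 column per animal named by tag, genotype and diet. Per the submitters' processing notes, mm10 and DESeq2 were used, while the aligner, counting program, annotation and strand setting are not given in the sources used here. Columns were assigned to groups by genotype and diet, since they carry no replicate number. Nothing states how the animals were paired or batched, and no pair of libraries in a group was alike within counting noise (chi-square per gene at least 3.85).

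Counts were filtered with filterByExpr, scaled by TMM and fitted in edgeR 4.0.16 (R 4.3.3) with robust quasi-likelihood over all 16 libraries, with 12 residual degrees of freedom. Two-sided p-values of each of 7 comparisons were adjusted (Benjamini-Hochberg) over all 17469 tested genes. CPM were computed here from effective library sizes. The 95% intervals of log2 fold changes used the SE and the total degrees of freedom. Gene positions and exon lengths were taken from GENCODE M21 on GRCm38, which held 49056 of the 49315 identifiers. Promoter windows are from RefSeq, with 29 of 33 members matched outside chromosome 18. 

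Values per library are given for any called member, the 3 members of lowest p in each comparison and 7 genes named whatever their values (Bdh1, Oxct1, Acat1, Slc16a1, Cpt1a, Angptl4 and Ucp2). Eci1, Hadha, Acsl1, Acsl6, Plin3 and others outside this rule were chosen after their values were seen. The members, gene lists and rules were chosen with earlier results of these data known. Some genes of these lists are not reported here. Alternatives were DESeq2 size factors in edgeR, no filter, DESeq2 1.42.0, a minimum of 10 counts in each library, limma-voom (limma 3.58.1), log2 CPM of Xist as a covariate, only the groups compared, each library left out, and mean transcript length for levels. Leaving out KC888LL and KC872RL together was chosen after seeing the data.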

Additional observations from a re-analysis of the deposited data

Results flagged for a closer look

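In 10 of 132 groups of 4 libraries, over 33 members and 4 groups, the most extreme library stood apart from the others by Dixon's test at the 95% level (7.58%), where chance gives about 1 in 20. In the wild type on the standard diet these were Cpt2 in KC894RLL (6.67 CPM, the next being 4.31), Etfa in KC894RLL (39 CPM, next 33.3), Hadh in KC897RR (20.5 CPM, next 17.6) and Decr1 in KC890RL (12.8 CPM, below a narrow range of the other 3). In the wild type on the ketogenic diet it was Acadl in KC846L (22.9 CPM, next 27.7). Among knockout libraries on the standard diet it was Acsl6 in KC872RL (276 CPM, next 256). In the knockout on the ketogenic diet KC934R was high for Decr1 (18.5 CPM, next 13.6), Etfa (39.6 CPM, next 31) and Etfb (12 CPM, next 8.9), and KC913RR was low for Acaa2 (10.8 CPM, next 16.6). No cause was tested.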

How the results depend on the processing

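Over 47 single-gene results and 878 alternatives, 855 kept the direction and stayed uncalled, 14 passed the threshold and 9 changed sign. Since no member was called to begin with, no call could be lost. With DESeq2 1 member was called for the diet in the knockout and 2 on average over genotypes. With 1 library left out, the number called ranged from 0 to 4 for the diet in the knockout, 0 to 1 on average and 0 to 4 for the knockout over the wild type on the standard diet, and it was 0 under every alternative in the other 4 comparisons. The 4 are those without KC888LL. The median of the members for the diet in the knockout ranged from -0.161 (without KC934R) to -0.027 (without KC872RL). With 1 library left out, sign changes occurred in values near 0: for the diet in the wild type, Slc16a1 ranged from -0.05 to 0.05 and Angptl4 from -0.31 to 0.06, with 0.01 without KC846L. On average over genotypes Bdh1 ranged from -0.03 to 0.01 and Oxct1 from -0.04 to 0, and without KC888LL and KC872RL together Oxct1 was at 0. The interaction of Ucp2 ranged from -0.12 to 0.23. The causes were not tested. Mean transcript length moved the level per kb of 30 of 33 members by more than 1 SD, with the same 6 members on top. No paired analysis was possible because the columns carry no replicate number. Counts per library were lowest for Ehhadh (23 to 63) and Angptl4 (25 to 75).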
